A study of Mus musculus with 106 samples.

Results

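The 36 genes described here encode the machinery of the cell cycle and of DNA replication. They were taken as a fixed list of gene symbols and followed by RNA sequencing across tissues of mice housed in the cold (10 °C), at room temperature (22 °C) or in the warmth (34 °C). All 36 were present in each of the 4 deposited count tables, which share 19172 gene names. The rule used gene symbols and no measured value, although the list was chosen with earlier results of these data known.

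The mice were male C57BL/6J animals of wild type genotype, 8 weeks old when the exposures began. Per the methods, the supplier was Janvier for the 10 °C experiment and Charles River for the 34 °C experiment, controls included. For the 10 °C groups the temperature was lowered in steps, first to 18 °C and then to 14 °C, each held for 5 days, before 2 weeks at 10 °C. Their tissues were taken at a labelled age of 11 weeks, except quadriceps, which was labelled 12 weeks at every temperature. The 34 °C groups spent 4 weeks at 34 °C and carry a labelled age of 12 weeks. Both had controls kept at 22 °C, the usual room temperature of mouse housing. The 106 libraries fell into 31 groups. At 10 °C these were bone marrow (6 libraries per temperature), spinal cord (5), quadriceps (3 at 10 °C against 6 at 22 °C) and 3 per temperature for spleen, ileum, interscapular brown fat (iBAT), inguinal subcutaneous fat (ingSAT), perigonadal visceral fat (pgVAT), liver, brain and hypothalamus. At 34 °C there were 3 libraries per temperature for ileum, iBAT, liver and brain, and 3 quadriceps libraries set against the same 6 quadriceps controls. A library pooled RNA of 2 mice, except in bone marrow and spinal cord, where each came from 1 mouse, and in the 34 °C experiment on iBAT, where the 22 °C libraries were single mice and the 34 °C libraries 2 single mice and 1 pool of 2. Library totals ran from 4262403 to 62880248 counts with a median of 21585677.

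Several libraries carried transcripts of another organ. One brain library, 22 °C replicate 2 of the 10 °C experiment, held liver transcripts: 5 hepatocyte genes summed to 63040 CPM (counts scaled to the library's size) there, against 733.6 to 1102 CPM in the other 5 brain libraries of that comparison, so brain values are given with and without it. Epididymis genes reached 21000 and 19610 CPM in 10 °C pgVAT replicates 1 and 3 and 2.533 CPM in replicate 2, against 634 to 2588 CPM at 22 °C. In iBAT at 10 °C the same epididymis genes reached 3.331 to 35.68 CPM, with at most 0.156 CPM at 22 °C, and hepatocyte genes showed the opposite, 2.799 to 3.761 CPM at 10 °C against 44.15 to 79.11 CPM at 22 °C. Spleen 22 °C replicate 3 held 136.5 CPM of enterocyte and 166.1 CPM of Paneth cell genes, which were at most 15.98 and 36.08 CPM in the other spleen libraries. The part of these transcripts in the results below was not tested unless a value without the library is given. The defining markers of each tissue were otherwise present, including Ucp1 and its companions in iBAT, crypt and enterocyte genes in ileum, and red cell and neutrophil precursors in bone marrow.

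Dividing cells switch these genes on in 2 waves. Before and during DNA synthesis the E2F factors drive the genes that load and fire replication origins, clamp the polymerase to DNA and supply nucleotides. Later, towards mitosis, the DREAM and B-Myb-FOXM1 complexes act at the CHR element, often next to CCAAT boxes bound by NF-Y, to release the cyclins, kinases, kinesins and checkpoint proteins that build the spindle and part the chromosomes. Resting tissue holds most of these transcripts low, whereas marrow, spleen and the crypts of the gut contain many cycling cells. By role the members were 6 mitotic entry cyclins and kinases (Ccna2, Ccnb1, Ccnb2, Cdk1, Plk1, Aurka), 12 genes of the spindle, its checkpoint and cytokinesis (Aurkb, Birc5, Bub1, Bub1b, Cdc20, Cenpe, Cenpf, Kif11, Kif20a, Kif23, Tpx2, Nusap1), the proliferation marker Mki67 with the topoisomerase Top2a, 10 genes of origin licensing and the replicative helicase (Mcm2, Mcm3, Mcm4, Mcm5, Mcm6, Mcm7, Cdc6, Cdc45, Cdt1, Gins2), 4 genes of the clamp and nucleotide supply (Pcna, Rrm1, Rrm2, Tyms) and the transcription factors E2f1 and Foxm1.

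Promoter letters of both waves are shown here. Stretches of 160 bases directly before the RefSeq transcription start are shown for 3 members of the late wave and 3 of the helicase, since both sets recur in the results below. Sequences are from RefSeq on GRCm38.p6, 5′ to 3′ on the strand of the gene, with capitals marking the CHR letters TTTGAA, the CCAAT box CCAAT, and the E2F letters TTTCCCGC, TTTGGCGC, TTTCGCGC or TTTGCCGC, each searched on both strands, where CHR reads TTCAAA and the box ATTGG on the opposite strand.
Mki67 (chr7:135716380-135716539, minus strand): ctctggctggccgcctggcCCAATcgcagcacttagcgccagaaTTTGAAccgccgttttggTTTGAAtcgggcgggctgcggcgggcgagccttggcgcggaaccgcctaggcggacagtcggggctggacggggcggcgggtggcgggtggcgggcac
Top2a (chr11:99024190-99024349, minus strand): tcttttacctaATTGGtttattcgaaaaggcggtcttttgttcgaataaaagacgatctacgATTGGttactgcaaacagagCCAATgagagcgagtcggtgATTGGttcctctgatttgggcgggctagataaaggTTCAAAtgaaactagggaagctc
Kif11 (chr19:37376222-37376381, plus strand): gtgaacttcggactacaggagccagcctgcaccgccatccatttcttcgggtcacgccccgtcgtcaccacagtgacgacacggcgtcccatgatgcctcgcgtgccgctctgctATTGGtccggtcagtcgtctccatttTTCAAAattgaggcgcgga
Mcm2 (chr6:88898781-88898940, minus strand): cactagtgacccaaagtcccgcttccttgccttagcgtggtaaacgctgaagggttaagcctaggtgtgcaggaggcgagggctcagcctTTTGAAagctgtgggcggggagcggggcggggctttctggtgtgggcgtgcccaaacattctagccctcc
Mcm5 (chr8:75109349-75109508, plus strand): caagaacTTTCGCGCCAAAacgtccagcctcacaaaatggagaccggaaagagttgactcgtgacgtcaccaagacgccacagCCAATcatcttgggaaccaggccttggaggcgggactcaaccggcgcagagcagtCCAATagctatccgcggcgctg
Mcm6 (chr1:128359706-128359865, minus strand): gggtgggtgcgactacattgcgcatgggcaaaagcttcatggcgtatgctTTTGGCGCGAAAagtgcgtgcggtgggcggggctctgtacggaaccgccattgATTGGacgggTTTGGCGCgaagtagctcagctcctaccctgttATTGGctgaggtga

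A promoter window reaching from 250 bases before to 50 bases after the start was at hand for 29 of the 36 members. Those without a window were Ccna2, Aurkb, Kif20a, Tpx2, Mcm4, Gins2 and Foxm1. The CHR letters occurred in 13 of the 29 (44.8%), against 20.2% of the windows of 27025 genes, and the CCAAT box in 23 of 29 (79.3%), against 41.1%. E2F letters were found in 7 of 29 members (24.1%), against 2.6% of all genes. By role, CHR stood in 4 of 5 windows of mitotic entry genes, in both Mki67 and Top2a, in 5 of 9 spindle windows (Bub1b, Cdc20, Cenpf, Kif11 and Kif23) and in 2 of 8 licensing and helicase windows (Cdc45 and Mcm2). E2F letters stood in 6 of 8 windows of the licensing and helicase genes (Cdc6, Cdt1, Mcm3, Mcm5, Mcm6 and Mcm7) and in 1 other member, Cdk1. The 4 windows of the clamp and nucleotide supply genes held neither, and 3 of the 4 held a CCAAT box. In Mcm5 and Mcm6 matches on the 2 strands overlap within 1 capital run, and a match is a description of the letters only.

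**Figure D1:**
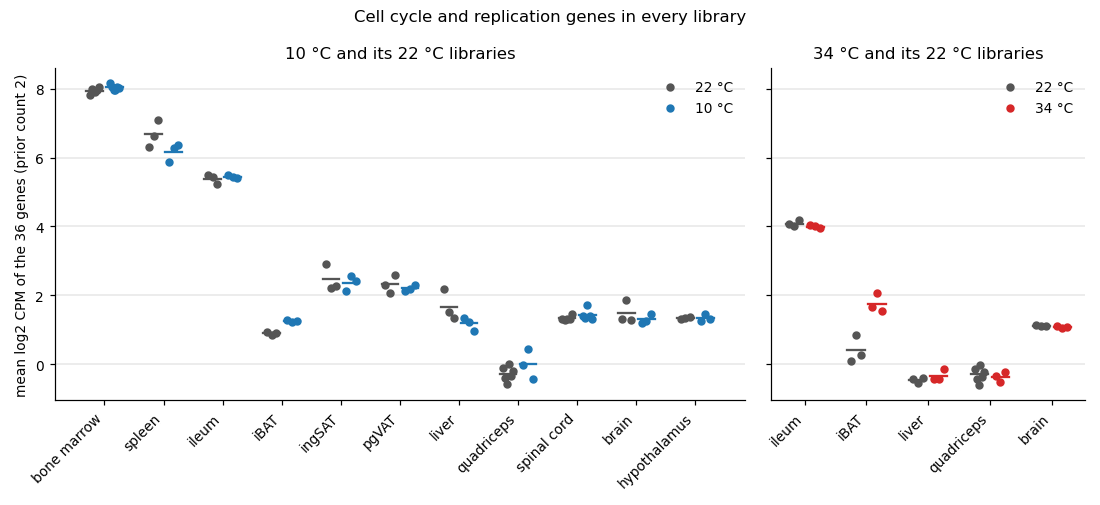
Mean log2 CPM over the 36 members in every library, with the 10 °C experiment and the 34 °C experiment in separate panels; each point is a library, coloured by housing temperature. Bone marrow lay highest, near 8, followed by spleen and ileum, and the 34 °C libraries of iBAT all stood above their 22 °C libraries.

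At 22 °C the members' levels differed widely between tissues. The mean log2 CPM over the 36 members, a level with no test attached, was 7.94 ± 0.07 in bone marrow (SD, n = 6), 6.67 ± 0.38 in spleen and 5.39 ± 0.14 in ileum (SD, n = 3 each). Below these came ingSAT with 2.48 ± 0.39, pgVAT with 2.32 ± 0.26, liver with 1.67 ± 0.45 and iBAT with 0.90 ± 0.04 (SD, n = 3 each). Brain, spinal cord and hypothalamus lay at 1.49 ± 0.32 (n = 3, 1.32 and 1.29 in its 2 libraries without liver transcripts), 1.34 ± 0.07 (n = 5) and 1.34 ± 0.03 (n = 3), and quadriceps at −0.27 ± 0.22 (SD, n = 6). The steps from marrow to spleen, from spleen to ileum and from ileum to ingSAT exceeded the spread of the libraries, whereas ingSAT and pgVAT, and likewise liver and the 3 nervous tissues, overlapped. Bone marrow, spinal cord, quadriceps and the 34 °C experiment were sequenced at another site than the remaining tissues, with another library kit per the labels and methods, so levels across these sets carry that difference. In the 22 °C libraries of the 34 °C experiment ileum lay at 4.08 ± 0.09 and liver at −0.47 ± 0.08 (SD, n = 3 each). Outside quadriceps the experiments also differ in labelled age, and these differences cannot be told apart.

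The leading members also differed between tissues. Per kilobase of exon, Mki67 stood first at 22 °C in bone marrow with 308 CPM per kilobase, in spleen with 161 and in ileum of the 10 °C experiment with 56.6. In the ileum controls of the 34 °C experiment Pcna came first with 27.1 CPM per kilobase, and Mki67 stood at 9.10. Rrm2, the small subunit of ribonucleotide reductase, followed in marrow with 226 CPM per kilobase, and Top2a, which untangles chromosomes before they separate, in spleen with 73.7 and in ileum with 46.1. In every other tissue of either experiment Pcna, the sliding clamp that also serves DNA repair, stood first, with 6.03 CPM per kilobase in iBAT of the 10 °C experiment, 8.32 in ingSAT and 7.48 in pgVAT. The lowest level per kilobase in iBAT of the 10 °C experiment belonged to Cenpf, a kinetochore protein, with 0.0518. Some counts are uncertain. Exons of Gins2 overlap those of Gse1 on the opposite strand over 67.3% of their bases, Kif20a overlaps Cdc23 over 29.3%, Ccna2 overlaps Exosc9 over 12.5%, and whether strand was used in counting is not given in the sources used here. Ccnb1, Pcna and Tyms have annotated pseudogene copies that could share reads.

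**Figure D2:**
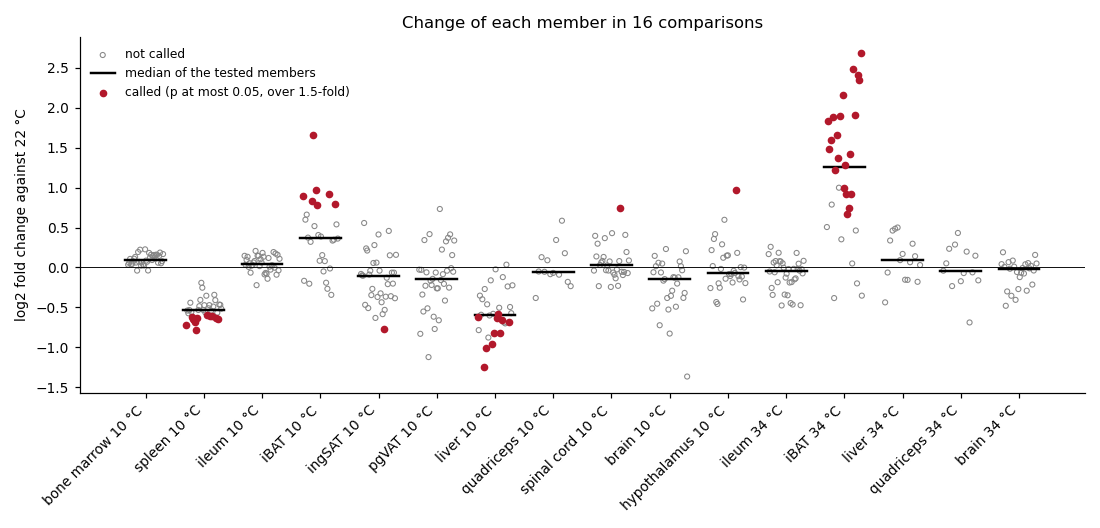
Log2 fold change of each tested member (points) in the 16 comparisons of 10 °C or 34 °C with 22 °C, as fitted by edgeR. The points spread upwards in iBAT at 34 °C, with a median of 1.26, lie below 0 in spleen at 10 °C, with a median of −0.54, and sit close to 0 in bone marrow and in ileum.

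Each exposed group was compared with its own 22 °C libraries by edgeR's quasi-likelihood test, except that both quadriceps groups were set against all 6 quadriceps controls, which the labels do not split. A gene was called where the unadjusted p was at most 0.05 and the fold change above 1.5, the limits the study used, and counts by a second rule, an adjusted p (Benjamini-Hochberg, across every gene in the fit) under 0.05, stand beside it. All fold changes are on the log2 scale, exposed minus 22 °C, with the standard error of the fit. In bulk tissue, fewer cells of a type and less RNA per cell cannot be told apart.

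In bone marrow, the tissue with the highest member levels, cold shifted the members upwards by small amounts. At 10 °C 34 of 36 had a log2 fold change above 0, against 53.2% of all genes, and 2 below, and their median was 0.09, against 0.01 over all 12525 genes tested. No member reached a 1.5-fold change, and 0.647% of all genes were called higher. At an adjusted p under 0.05 alone 6 members were higher and none was lower, 6 of 36 against 7.33% of all genes that were higher by this rule. At an unadjusted p of at most 0.05 it was 16 members, against 15% of genes.

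Those 6 belonged mostly to origin licensing. Gins2, a subunit of the active helicase whose exons lie largely opposite Gse1, ranged from 21.6 to 25.7 CPM at 22 °C with a median of 23.4, and from 26.3 to 29.4 CPM at 10 °C with a median of 27.4. It was the 1 member whose groups did not overlap, against 2.67% of all genes that were higher without overlap (0.23 ± 0.05, adjusted p = 0.011). Cdt1, which loads the MCM ring on origins, had 130, 137 and 159 CPM as lowest, median and highest value at 22 °C and 151, 159 and 185 CPM at 10 °C (0.22 ± 0.06, adjusted p = 0.0163). Its partner Cdc6 went from a median of 160 to 179 CPM (0.19 ± 0.06, adjusted p = 0.0285). Of the ring itself, Mcm2 went from a median of 396 to 446 CPM (0.18 ± 0.05, adjusted p = 0.0287) and Mcm4 from 319 to 358 CPM (0.16 ± 0.05, adjusted p = 0.0362). Nusap1, a microtubule protein of the spindle, was the sixth, with medians of 325 and 360 CPM (0.16 ± 0.05, adjusted p = 0.0367). In all 6 the lowest 10 °C library lay above the lowest 22 °C library, and the temperatures overlapped in 5 of the 6.

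The more familiar proliferation genes of marrow stayed inside the test's limits. Mki67 ran from 2729 to 3311 CPM at 22 °C (median 3153) and from 3151 to 3653 CPM at 10 °C (median 3392), with a log2 fold change of 0.14 ± 0.06 and an adjusted p of 0.0927. Rrm2 ran from 541 to 707 CPM (median 627) and from 650 to 814 CPM (median 712), a log2 fold change of 0.19 ± 0.07 with an adjusted p of 0.0637. The temperatures overlapped in each gene. Pcna had medians of 196 and 219 CPM (0.16, adjusted p = 0.0711), Top2a 1289 and 1348 CPM (0.05, adjusted p = 0.443) and Mcm5 426 and 445 CPM (0.09, adjusted p = 0.217). The kinase of mitotic entry Cdk1 had medians of 251 and 269 CPM and its cyclin Ccnb1 57.2 and 61.9 CPM, with adjusted p of 0.42 and 0.276. E2f1, the activator of the early wave, had medians of 76.9 and 79.4 CPM, and Foxm1, the activator of the late wave, 163 and 168 CPM, both with log2 fold changes of at most 0.03.

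Cell type markers of marrow also differed between the temperatures. Genes of red cell precursors summed to 10600 to 13440 CPM at 22 °C and 13870 to 17220 CPM at 10 °C, without overlap, although none of the 8 was called. Genes of progenitor B cells ran from 223.8 to 329 CPM and from 366.9 to 432.5 CPM, and 3 of 6 were called higher (Vpreb1 by 0.96, Dntt by 0.75 and Igll1 by 0.59 on the log2 scale). Mature neutrophil genes went the other way, with 25790 to 38680 CPM against 23550 to 26330 CPM, and neutrophil precursor genes spanned 3190 to 4095 and 2833 to 3353 CPM. The part of these markers in the members' shift was not tested. Among 111 tested genes of the wider cell cycle lists none was called, and 23 had an adjusted p under 0.05 in the upward and 1 in the downward direction. The largest shifts among these were 0.29 for Cdc25b, a phosphatase that activates Cdk1, 0.29 for the origin recognition subunit Orc5 and 0.25 for the repressor E2f7, and −0.18 for Cdc25a.

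Spleen gave the opposite picture. All 36 members had a log2 fold change below 0 at 10 °C, against 51.1% of all genes, and 12 of 36 were called lower, against 2.04% of the 14117 genes tested. None was called higher, against 0.638% of genes. The median over the members was −0.54, against −0.00 over all genes. By the adjusted p none of the 36 passed, with values of at least 0.485 for the 12, and 0.0779% of all genes were lower by that rule. At an unadjusted p of at most 0.05, 25 members were lower, against 6.35% of genes.

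**Figure D3:**
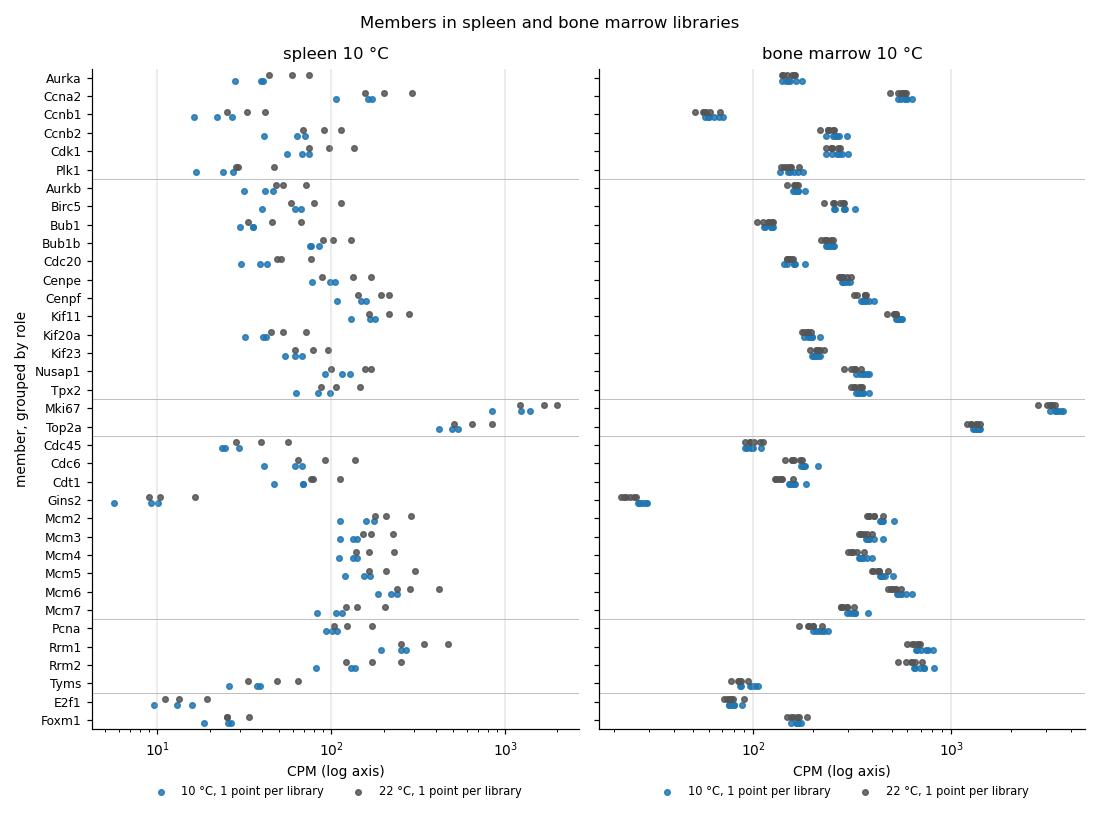
CPM on a log axis for members in spleen and bone marrow, 1 point per library, coloured by temperature. In spleen the 10 °C points sit at the lower end of the 22 °C points, with Cdk1 at 55.7 to 74.3 CPM against 74.9 to 135, and in marrow the temperatures overlap in every member except Gins2.

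Mitotic entry was the role with most calls in spleen, 5 of 6 genes. Aurka, a kinase of the centrosome, had 43.9, 59.7 and 74.1 CPM at 22 °C and 28.1, 40.8 and 39.5 CPM at 10 °C (−0.72 ± 0.21, adjusted p = 0.485). Cdk1 had 74.9, 97.5 and 135 CPM against 55.7, 68.5 and 74.3 CPM (−0.63 ± 0.20). Plk1, which acts on centrosomes, kinetochores and cytokinesis, had 28.4, 29.2 and 47.3 CPM against 16.8, 23.9 and 27.5 CPM (−0.63 ± 0.24). In these 3 genes every 10 °C library lay below every 22 °C library. The cyclin Ccnb1 had 25.2, 32.9 and 41.9 CPM against 16.3, 21.9 and 27 CPM (−0.62 ± 0.22), and Ccnb2 had 68.9, 91.0 and 115 CPM against 41.2, 63.7 and 70.5 CPM (−0.65 ± 0.23). Their groups overlapped by the lowest control library.

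Licensing and helicase genes gave 5 of 10 calls. Cdc6 had 64.6, 92.1 and 136 CPM at 22 °C and 41.4, 62.1 and 67.8 CPM at 10 °C, the largest difference of the 36 (−0.78 ± 0.27). Cdc45, which joins the ring to make the active helicase, had 28.5, 39.5 and 56.4 CPM against 23.6, 24.6 and 29.7 CPM (−0.68 ± 0.23). Of the ring, Mcm2 had 179, 208 and 286 CPM against 112, 158 and 176 CPM (−0.60 ± 0.21), Mcm7 had 122, 141 and 203 CPM against 83.1, 107 and 115 CPM (−0.61 ± 0.20) and Mcm5 had 164, 208 and 303 CPM against 120, 155 and 168 CPM (−0.61 ± 0.22). Mcm2 and Mcm7 did not overlap between the temperatures, and Mcm5 did. The other 2 called members were Cdc20, which activates the anaphase-promoting complex, with 49.1, 51.3 and 76.2 CPM against 30.3, 39.3 and 43.1 CPM (−0.65 ± 0.19), and Rrm2 with 121, 172 and 251 CPM against 81.8, 131 and 137 CPM (−0.64 ± 0.27). Over all members 11 did not overlap in the downward direction, against 8.46% of all genes.

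Mki67 itself was not called in spleen, with 1214, 1674 and 1974 CPM at 22 °C and 836, 1233 and 1395 CPM at 10 °C (−0.49 ± 0.22, adjusted p = 0.503). Top2a had 508, 649 and 837 CPM against 414, 495 and 536 CPM (−0.46 ± 0.18) and Pcna 103, 124 and 173 CPM against 93.1, 101 and 107 CPM (−0.41 ± 0.17), both under the fold limit. The smallest difference belonged to E2f1, with 11.1, 13.3 and 19.4 CPM against 9.65, 13.1 and 15.8 CPM (−0.19), and Foxm1 had 25.3, 25.2 and 33.7 CPM against 18.7, 25.7 and 26.5 CPM (−0.25). In the wider lists 11 of 112 genes were called lower and none higher, led by the initiation factor Mcm10 (−0.68), the kinetochore subunit Spc24 (−0.67) and the histone chaperone subunit Chaf1b (−0.66).

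The spleen result depended on single libraries. The members' mean log2 CPM was 6.31, 6.63 and 7.08 in the 22 °C libraries and 5.86, 6.26 and 6.38 in the 10 °C libraries, so the lowest control overlapped the highest cold library. Leaving out 22 °C replicate 3, which also held the gut transcripts, gave 0 called members and a median of −0.30, and leaving out 10 °C replicate 1 gave 0 called members. Leaving out 22 °C replicate 1 gave 29 called members and a median of −0.69, and leaving out 10 °C replicate 3 gave 21. Markers of bone marrow lineages moved in the same libraries. The 6 neutrophil precursor genes summed to 37.81, 51.58 and 64.15 CPM at 22 °C and 4.675, 11.53 and 8.47 CPM at 10 °C, and all 6 were called lower. Mature neutrophil genes summed to 335.7, 590.4 and 622.8 CPM and 146.7, 152.5 and 155 CPM, with 6 of 6 called lower. Red cell precursor genes summed to 2956, 4837 and 5489 CPM and 2219, 3330 and 3968 CPM, with Klf1, Epor and Rhag of the 8 called lower, while mature B cell genes summed to 2664 to 3197 CPM and 3053 to 3793 CPM. The part of these cell types in the members' difference was not tested.

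**Figure D4:**
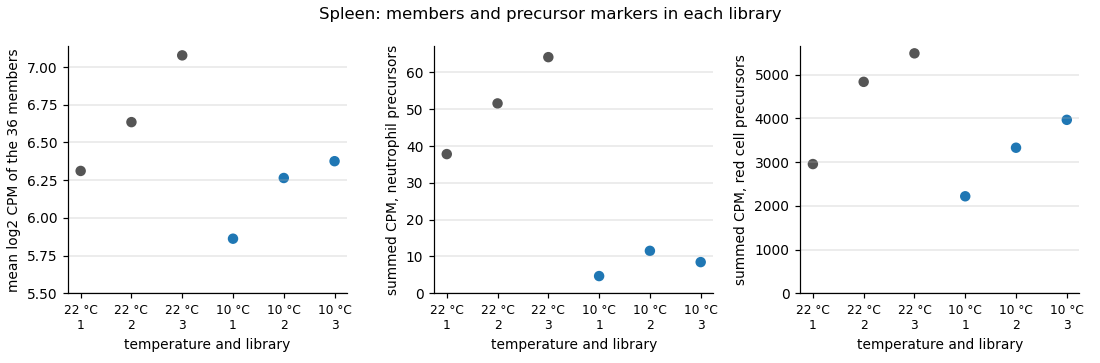
Spleen libraries at 22 °C and 10 °C, with the members' mean log2 CPM, the summed CPM of neutrophil precursor genes and the summed CPM of red cell precursor genes, 1 point per library. Neutrophil precursor sums fall from 37.81 to 64.15 CPM to 4.675 to 11.53 CPM without overlap, whereas the members' mean overlaps.

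Ileum, whose crypts renew the gut lining, showed no called member at either temperature, against 1.44% of genes called higher and 1.26% called lower at 10 °C, and 1.57% and 1.26% at 34 °C. At 10 °C the members' median was 0.04, with values between −0.22 for Cdt1 and 0.21 for Cdk1, and 26 of 36 were above 0, against 48.7% of genes. Mki67 had 608, 585 and 515 CPM at 22 °C and 566, 580 and 593 CPM at 10 °C (0.03 ± 0.08, adjusted p = 0.893). Top2a had 447, 430 and 370 CPM against 483, 424 and 484 CPM (0.16 ± 0.10). The 10 °C libraries lay within or near the range of the controls for both. Cdk1 had 51.7, 55.9 and 40.3 CPM against 58.6, 54.0 and 58.0 CPM, Ccnb1 17.4, 15.5 and 14.2 CPM against 16, 12.8 and 16.1 CPM, and Mcm5 54.9, 52.4 and 49.3 CPM against 58.4, 58.2 and 53.5 CPM. Rrm2 differed by −0.09, E2f1 by 0.02 and Foxm1 by 0.10 on the log2 scale. The members without overlap, 2 in each direction against 13.1% of genes higher and 10.5% lower, were Pcna with 42.0, 42.6 and 38.8 CPM against 51.3, 44.0 and 45.6 CPM (0.19 ± 0.08, adjusted p = 0.298) and Rrm1 (0.17 ± 0.06, adjusted p = 0.242), both higher, and Cdt1 (−0.22) and Mcm4 (−0.14), both lower. Crypt marker genes summed to 574.7 to 626.8 CPM at 22 °C and 593 to 670.1 CPM at 10 °C, an overlapping range, while enterocyte genes went from 8520 to 8906 CPM to 13740 to 15010 CPM.

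At 34 °C the ileum median was −0.05, and 24 of 36 members were below 0, against 47.3% of genes. Those at an unadjusted p of at most 0.05 were 5, all lower and none past the fold limit, against 3.25% of genes, and each had an adjusted p of 0.594. They were Cenpe (−0.48 ± 0.15), Bub1b (−0.34 ± 0.12), Mcm3 (−0.45 ± 0.17), Mcm5 and Rrm2. Mcm5 had 28.5, 25.1 and 32.8 CPM at 22 °C and 25.6, 19.2 and 17.8 CPM at 34 °C (−0.46 ± 0.17), and Rrm2 had 16.9, 11.4 and 15.2 CPM against 9.88, 11.5 and 9.86 CPM (−0.47 ± 0.17). For both the temperatures overlapped by 1 library. Mki67 had 97.5, 79.1 and 98.1 CPM against 84.7, 88.4 and 76.8 CPM (−0.14 ± 0.11) and Top2a 67.0, 69.0 and 71.6 CPM against 65.9, 72.7 and 65.9 CPM (−0.02). Cdk1 differed by 0.08, Pcna by −0.02, Ccnb1 by −0.06, E2f1 by −0.00 and Foxm1 by −0.34, the last without overlap. None of the 112 genes of the wider lists was called in ileum at either temperature.

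Across the 16 comparisons the largest median change of the members was in brown fat at 34 °C, close to thermoneutrality, when brown fat needs to make little heat. There 21 of 30 tested members were called higher, against 12.2% of 12331 genes, and none was called lower, against 7.19%. By the adjusted p 21 were higher, against 13.5% of genes. The median was 1.26, against 0.02 over all genes, and the mean log2 CPM of all 36 members was 0.11, 0.85 and 0.27 at 22 °C and 1.66, 2.06 and 1.54 at 34 °C. The remaining 6 members were below the level needed for testing. A filter on the mean level favours genes that are high in one group. The count was therefore repeated with every gene of more than 1 read, and then 26 of 36 were called. No share of all genes is given for that fit. Of all 36 members, tested or not, 29 had every 34 °C library above every 22 °C library, and 2 the reverse. Of the 30 tested members 23 were higher without overlap, against 24.1% of tested genes. No share of genes lower without overlap is given.

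**Figure D5:**
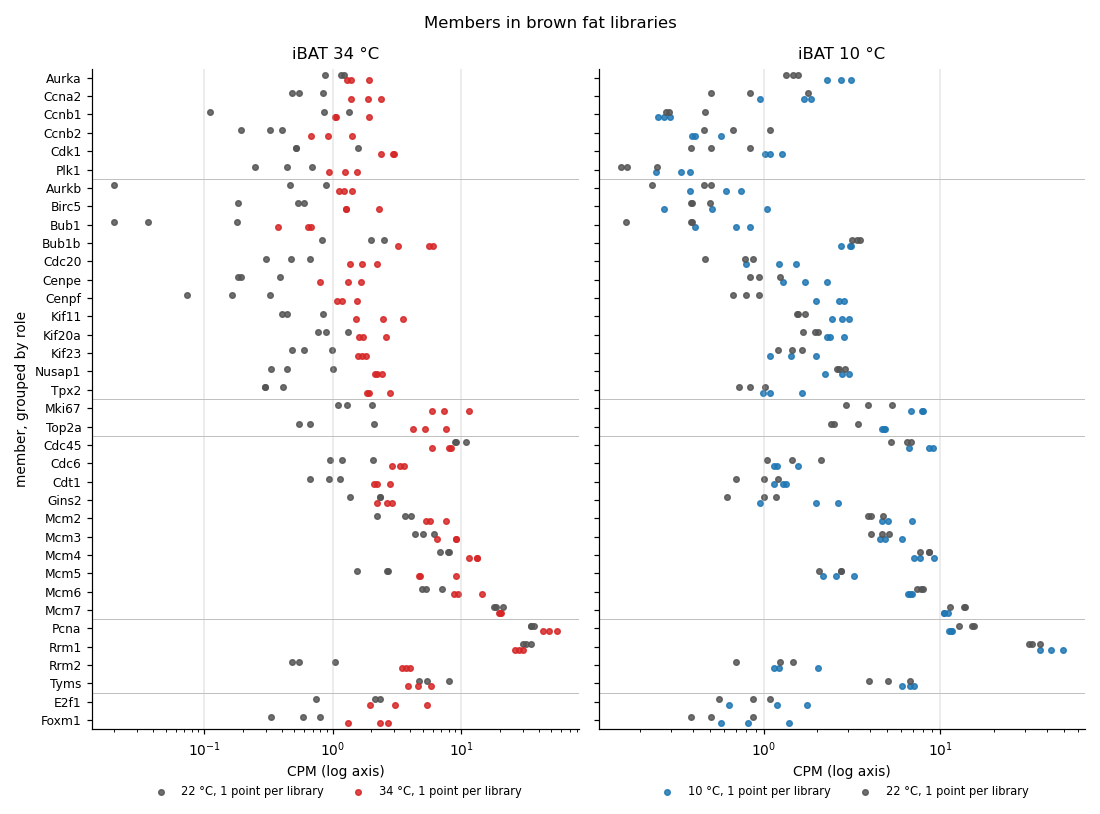
CPM on a log axis for members in iBAT, with 34 °C against its 22 °C libraries and 10 °C against its own 22 °C libraries, 1 point per library and values under 0.02 CPM drawn at 0.02. At 34 °C most genes of the late wave separate by temperature, as with Tpx2 at 1.84 to 2.77 CPM against 0.294 to 0.411, whereas Mcm7, at 19.7 to 20.3 CPM against 17.9 to 21.2, overlaps.

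Of the 12 spindle and cytokinesis genes, 8 were tested and all 8 were called. With low levels at 22 °C, genes such as Tpx2 passed the level filter through their 34 °C libraries, so this share ranks no role. Tpx2, which activates Aurka and nucleates spindle microtubules, had 0.294, 0.297 and 0.411 CPM at 22 °C and 1.84, 2.77 and 1.90 CPM at 34 °C (2.68 ± 0.34, adjusted p = 0.00277). Kif11, the motor that pushes spindle poles apart, had 0.405, 0.832 and 0.438 CPM against 2.47, 3.52 and 1.52 CPM (2.16 ± 0.45, adjusted p = 0.0132). Cdc20 had 0.662, 0.475 and 0.301 CPM against 1.37, 2.21 and 1.70 CPM (1.88 ± 0.39, adjusted p = 0.0135). Every 34 °C library lay above every control in each of these genes. Nusap1 rose from 0.442, 1.01 and 0.329 CPM to 2.12, 2.39 and 2.20 CPM (1.91 ± 0.44, adjusted p = 0.0187), and Birc5, Kif23, Bub1b and Kif20a rose by 1.84, 1.29, 1.49 and 1.0 on the log2 scale, Kif20a with an adjusted p of 0.0648. Bub1, Aurkb, Cenpe and Cenpf were too low to test. Bub1, a checkpoint kinase, had 0.0368, 0.178 and 0 CPM against 0.377, 0.681 and 0.645 CPM, and the other 3 likewise did not overlap between the temperatures.

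Mki67 and Top2a rose together. Mki67, the antigen used to stain cycling cells, had 1.10, 2.02 and 1.29 CPM at 22 °C and 7.38, 11.6 and 5.95 CPM at 34 °C (2.49 ± 0.35, adjusted p = 0.00365). Top2a had 0.662, 2.11 and 0.548 CPM against 4.24, 7.56 and 5.24 CPM (2.35 ± 0.54, adjusted p = 0.0181). The second control and the second 34 °C library were the highest of their groups in both genes. Of the mitotic entry genes, 2 of 4 tested were called. Ccna2 had 0.478, 0.832 and 0.548 CPM against 1.89, 2.37 and 1.38 CPM (1.59 ± 0.36, adjusted p = 0.0175) and Cdk1 0.515, 1.57 and 0.520 CPM against 2.95, 3.0 and 2.37 CPM (1.66 ± 0.47, adjusted p = 0.0371). Ccnb1 was not called, with 0.110, 1.34 and 0.849 CPM against 1.04, 1.92 and 1.05 CPM (0.79 ± 0.70, adjusted p = 0.419), nor was Aurka (0.51, adjusted p = 0.241). The transcription factor Foxm1 had 0.589, 0.802 and 0.329 CPM against 2.71, 2.35 and 1.32 CPM (1.89 ± 0.44, adjusted p = 0.0193), and E2f1 0.736, 2.32 and 2.14 CPM against 3.06, 5.42 and 1.93 CPM (1.0 ± 0.52, adjusted p = 0.179), with the third library of E2f1 inside the control range.

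Among the replication genes, licensing and helicase gave 7 calls of 10 and the clamp and nucleotide supply 1 of 4. Mcm4 had 6.84, 7.84 and 7.99 CPM at 22 °C and 13.2, 13.3 and 11.6 CPM at 34 °C (0.75 ± 0.13, adjusted p = 0.00731), and Mcm5 1.55, 2.64 and 2.68 CPM against 4.76, 9.01 and 4.72 CPM (1.42 ± 0.35, adjusted p = 0.0233). Cdt1 had 0.662, 1.13 and 0.931 CPM against 2.10, 2.77 and 2.23 CPM (1.37 ± 0.31, adjusted p = 0.0168), and Cdc6, Mcm6, Mcm2 and Mcm3 rose by 1.22, 0.92, 0.92 and 0.67 on the log2 scale. Their partner Mcm7 had 18.7, 17.9 and 21.2 CPM against 19.9, 19.7 and 20.3 CPM (0.05 ± 0.10), and Cdc45 had 9.12, 11.0 and 8.95 CPM against 5.89, 8.35 and 8.03 CPM (−0.38 ± 0.18, adjusted p = 0.145). Thus Mcm7 overlapped, and Cdc45 lay lower in every 34 °C library without passing the test. Exons of both share bases with a gene on the opposite strand, 7.25% with Ap4m1 for Mcm7 and 5.96% with Ufd1 for Cdc45. Rrm2 rose, with 0.478, 1.04 and 0.548 CPM against 3.70, 3.43 and 3.96 CPM (2.41 ± 0.35, adjusted p = 0.00405), while Rrm1, the large subunit of the same reductase, had 30.3, 35.1 and 31.8 CPM against 26.3, 30.2 and 28 CPM (−0.20) and Tyms, which makes thymidylate, differed by −0.35. Pcna had 34.8, 34.7 and 37.0 CPM against 43.4, 55.0 and 48.2 CPM, without overlap and under the fold limit (0.46 ± 0.10, adjusted p = 0.0157).

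In the wider lists 29 of 88 tested genes were called higher in iBAT at 34 °C and 2 lower. The mitotic kinesin Kifc1 rose by 2.66, the separase Espl1 by 2.58 and the cytokinesis protein Prc1 by 2.33 on the log2 scale, and Cdc25a fell by 1.12 and the CDK inhibitor Cdkn2c by 0.70. By list, 11 of 20 replication fork enzymes, 4 of 8 condensin, cohesin and separation genes, 4 of 5 mitotic kinesin and cytokinesis genes, 3 of 6 kinetochore genes, 3 of 13 E2F, RB and DREAM regulators and 2 of 13 origin genes were called higher, and none of 8 nucleotide supply genes was called in either direction.

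Markers of other cells moved with the members in iBAT at 34 °C. Brown adipocyte genes summed to 12820, 9755 and 10610 CPM at 22 °C and 4648, 6050 and 5285 CPM at 34 °C, with Ucp1, Ppargc1a and Dio2 of the 5 called lower. Macrophage genes summed to 56.07, 77.76 and 85.69 CPM and 100.3, 127.7 and 105.8 CPM (1 of 5 called higher, Cd68 by 1.21), and endothelial genes to 777.9, 622.7 and 595 CPM and 1071, 873.9 and 792.2 CPM (2 of 5 called higher, Pecam1 and Cdh5). Progenitor genes of the adipocyte lineage summed to 114 to 173.2 CPM and 160.9 to 237.4 CPM, with Cd34 and Dlk1 called higher. Skeletal muscle genes summed to 2.796, 4232 and 8.077 CPM at 22 °C and 3311, 894 and 1020 CPM at 34 °C, overlapping only through the second control. That control also had the highest members' mean log2 CPM of the controls, 0.85. The part of these cells in the members' rise was not tested. Leaving out any 1 of the 6 libraries left between 16 and 22 members called, with medians from 1.03 to 1.53.

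In brown fat at 10 °C, of 28 tested members 7 were called higher, against 6.00% of 12791 genes, and none was called lower, against 7.24%. By the adjusted p 4 were higher, against 6.22% of genes. With all 36 members in the fit 8 were called, a count given without a share of all genes. The median was 0.37, against −0.02 over all genes, and the mean log2 CPM of the 36 members was 0.94, 0.86 and 0.90 at 22 °C and 1.29, 1.23 and 1.25 at 10 °C, without overlap.

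Cenpf gave the largest change in cold iBAT, with 0.936, 0.671 and 0.792 CPM at 22 °C and 2.67, 1.97 and 2.86 CPM at 10 °C (1.66 ± 0.29, adjusted p = 0.00869). Mki67 had 5.30, 2.91 and 3.88 CPM against 6.83, 7.89 and 7.95 CPM (0.92 ± 0.23, adjusted p = 0.0334) and Top2a 3.43, 2.52 and 2.42 CPM against 4.8, 4.69 and 4.83 CPM (0.79 ± 0.21, adjusted p = 0.043). In all 3 the cold libraries stood above the controls. Aurka had 1.56, 1.34 and 1.46 CPM against 2.28, 3.13 and 2.74 CPM (0.89 ± 0.24, adjusted p = 0.0476), and Kif11 1.72, 1.57 and 1.54 CPM against 2.42, 2.79 and 3.05 CPM (0.78 ± 0.23, adjusted p = 0.0628). Cenpe, the kinetochore motor that aligns chromosomes, had 0.936, 1.23 and 0.834 CPM against 2.28, 1.29 and 1.72 CPM (0.84 ± 0.32, adjusted p = 0.126). Gins2 had 0.624, 1.17 and 1.0 CPM against 2.62, 0.952 and 1.97 CPM (0.97 ± 0.41, adjusted p = 0.156), overlapping through the second cold library, and its reads cannot be told apart from those of Gse1 over most of its exons if strand was not used.

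Replication genes of cold iBAT gave 1 call among 10 licensing and helicase genes, Gins2, and none among 4 of the clamp and nucleotide supply. Mcm5 had 2.73, 2.07 and 2.75 CPM at 22 °C and 2.57, 3.26 and 2.16 CPM at 10 °C (0.08), and Mcm7 13.8, 13.6 and 11.4 CPM against 10.5, 10.5 and 11.1 CPM (−0.27). Pcna had 12.7, 15.5 and 15.1 CPM against 11.7, 11.4 and 11.2 CPM (−0.34 ± 0.13, adjusted p = 0.134), and Rrm1 31.6, 36.7 and 32.9 CPM against 36.8, 49.4 and 41.9 CPM (0.34). None of these 4 passed the limits, although Mcm7, Pcna and Rrm1 did not overlap. Rrm2 differed by 0.35 and E2f1 by 0.52, both with overlapping groups. Cdk1, Foxm1 and Ccnb1 were too low to test, with 0.390, 0.503 and 0.834 CPM against 1.09, 1.02 and 1.27 CPM for Cdk1, 0.390, 0.503 and 0.876 CPM against 1.39, 0.816 and 0.572 CPM for Foxm1, and 0.254 to 0.468 CPM over all 6 libraries for Ccnb1.

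The called members of the 2 iBAT comparisons, which have separate controls, had Mki67, Top2a and Kif11 in common, 3 of the 7 at 10 °C and 3 of the 21 at 34 °C. Aurka and Gins2, called at 10 °C, were not called at 34 °C, and Cenpe and Cenpf could not be tested there. In the wider lists at 10 °C 10 of 93 genes were called higher, led by E2f2 (1.90), the cytokinesis regulator Racgap1 (1.05) and the chromosomal passenger subunit Cdca8 (1.02), and 7 lower, led by Mcm10 (−1.42), the maintenance methylation factor Uhrf1 (−1.02) and Cdc25a (−0.93). Brown adipocyte genes summed to 7271 to 12260 CPM at 22 °C and 12400 to 16240 CPM at 10 °C. Endothelial genes summed to 537.5 to 649.6 CPM and 596.5 to 853.3 CPM, macrophage genes to 130.9 to 179.5 CPM and 118.1 to 190.3 CPM, and skeletal muscle genes to 5649 to 8159 CPM and 2223 to 4682 CPM, with 4 of 5 muscle genes called lower. Scaling by library size alone, which moved the median of all genes by −0.18, left 5 members called with a median of 0.21.

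Subcutaneous fat, in which brown adipocyte genes rose from 84.42 to 137.9 CPM to 1855 to 2411 CPM at 10 °C with 5 of 5 called higher, had 1 of 35 tested members called lower, against 9.14% of genes, and none higher, against 7.20%, with a median of −0.10. Mcm4 was the 1, with 25.2, 20.4 and 15.8 CPM at 22 °C and 10.0, 13.8 and 12.1 CPM at 10 °C, without overlap (−0.77 ± 0.22, adjusted p = 0.0777). Mki67 had 44.5, 22.5 and 17.1 CPM against 20.6, 28.4 and 23.6 CPM (−0.21 ± 0.35, adjusted p = 0.723) and Top2a 29.1, 13.1 and 10.8 CPM against 14.1, 18.6 and 17.8 CPM (−0.06). The first control library stood above the other 5 in both, as it did for Cdk1, with 6.12, 2.70 and 2.51 CPM against 2.32, 3.31 and 3.18 CPM (−0.35). Without that library the members' median was 0.13. E2f1 had 8.60, 6.53 and 4.35 CPM against 4.06, 4.61 and 3.85 CPM (−0.63 ± 0.29, adjusted p = 0.21), Mcm5 12.1, 8.87 and 8.24 CPM against 4.23, 9.86 and 6.07 CPM (−0.53) and Pcna 17, 19.5 and 23.4 CPM against 21, 24.6 and 21.2 CPM (0.15). Rrm2 and Foxm1 differed by −0.20 and 0.06, and Ccnb1, at 0.576 to 0.860 CPM, was not tested.

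Other cells changed in that depot too. Macrophage genes summed to 1217, 899 and 657.8 CPM at 22 °C and 746.8, 485.5 and 538.5 CPM at 10 °C, with 3 of 5 called lower, and genes of adipocyte progenitors to 1082, 948.3 and 491.8 CPM and 567.1, 380.2 and 386.8 CPM. Mature B cell genes ran from 48.07 to 304.7 CPM and from 19.97 to 588.7 CPM, with overlap. Their part in the members' values was not tested. Of 111 genes in the wider lists, 5 were called higher (E2f2 by 1.27, the licensing inhibitor Gmnn by 0.97 and Orc4 by 0.83 foremost) and 5 lower (the CDK inhibitor Cdkn1c by −1.25, the ligase Lig1 by −0.77 and the polymerase Pole by −0.72).

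Visceral fat showed no called member among 35 tested, against 4.46% of genes called higher and 3.47% lower, and no member had an unadjusted p of at most 0.05. The median was −0.14, against 0.03 over all genes, and 6 members were lower without overlap, against 6.78% of genes (Aurkb, Bub1b, Kif23, Cdc6, Mcm7 and Cdc45). Mki67 had 17.9, 14.1 and 13.9 CPM at 22 °C and 14.6, 25.1 and 18.2 CPM at 10 °C (0.33 ± 0.28), Top2a 13.6, 12.3 and 7.60 CPM against 9.88, 15.2 and 12.5 CPM (0.15) and Cdk1 2.82, 0.832 and 3.47 CPM against 3.21, 3.03 and 3.25 CPM (0.42). The groups overlapped in all 3. Pcna had 21.7, 19.8 and 12.4 CPM against 23.7, 21 and 25.3 CPM (0.37), and Foxm1 2.25, 1.52 and 6.73 CPM against 2.0, 1.90 and 2.12 CPM (−0.77 ± 0.63). Mcm5, Rrm2 and E2f1 differed by −0.08, −0.01 and −0.62, and Ccnb1 was not tested, at 0.416 to 1.52 CPM. The third control held the high Foxm1 value, and without it the members' median was 0.07. Germ cell genes of the testis summed to 134.9 CPM in that control, against 6.789 and 12.75 CPM in the other controls. In the 10 °C libraries they summed to 133, 0.1407 and 97.42 CPM. In the wider lists none of 110 genes was called higher and 2 lower, Orc1 (−1.27) and Cdc25b (−0.94).

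Whether the tissues differed in their response was tested directly for the 8 tissues that share a table, with 48 libraries and 15935 genes. At 10 °C the test over all tissues gave 3 of 36 members an adjusted p under 0.05, Kif11 (0.0392), Cdc45 (0.0465) and Rrm1 (0.0315), against 16.1% of genes. Single contrasts gave few more. The change in spleen minus that in ileum had a median of −0.58 over the members and no member passed, against 0.00628% of genes. The change in ingSAT minus that in iBAT had a median of −0.63, again with no member past the threshold, against 2.96% of genes. Between ingSAT and pgVAT the 1 member was Mcm4 (−1.02 ± 0.27, adjusted p = 0.0159), against 8.30% of genes, and between iBAT and pgVAT it was Cdc45 (0.90 ± 0.28, adjusted p = 0.043), against 7.97%. Of the 36 members, these were the ones whose response to cold passed a test between tissues. The count of 3 fell to 0 without spleen 22 °C replicate 3 or 10 °C replicate 1, and with a replicate block, and was 7 without spleen 22 °C replicate 1, 5 without the brain library with liver transcripts and 1 without any 1 of the 3 iBAT controls, iBAT 10 °C replicate 3 or spleen 22 °C replicate 2.

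At 34 °C the same test, added after the data had been seen, covered iBAT, ileum, liver and brain with 24 libraries and 15044 genes. At an adjusted p under 0.05 the change in iBAT exceeded that in ileum in 25 of 36 members. The count was 12 against liver and 20 against brain, and the difference was positive in each of these members. In either direction 20.3%, 11.9% and 14.1% of all genes passed. Whatever the p, the difference was above 0 in 33, 30 and 32 members. The median differences were 1.41, 1.14 and 1.37. For Mki67 they were 2.6 ± 0.44, 2.83 ± 0.55 and 2.76 ± 0.45 (adjusted p = 0.00049 for ileum), for Tpx2 2.72, 2.84 and 2.51, and for Rrm2 2.85, 2.58 and 2.61. Mcm7, with differences of 0.17, −0.03 and −0.01, did not pass against any of the 3.

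Liver at 10 °C had 10 of 30 tested members called lower, against 2.54% of genes, and none higher, against 0.74%. The median was −0.59, and no member passed by the adjusted p. The MCM ring led. Mcm6 had 13.3, 13.4 and 12.5 CPM at 22 °C and 7.0, 9.52 and 8.38 CPM at 10 °C (−0.65 ± 0.13, adjusted p = 0.0941), and Mcm5 8.38, 7.35 and 7.42 CPM against 3.74, 5.85 and 3.56 CPM (−0.82 ± 0.20, adjusted p = 0.119). Mcm3 (−0.59) and Mcm2 (−0.64) were called as well, and all 4 lay lower in every cold library. The others were Kif20a (−0.82), Aurka (−0.62), Foxm1 (−0.96), Rrm2 (−0.68), Cdk1 with 6.27, 2.95 and 1.90 CPM against 2.15, 1.78 and 1.62 CPM (−1.01 ± 0.40) and Cdc20 with 6.15, 2.17 and 2.02 CPM against 2.39, 1.26 and 0.787 CPM (−1.25 ± 0.51). For the last 2 the first control library was far above the rest, and Mki67, at 18.6, 9.39 and 6.65 CPM against 8.96, 6.54 and 6.11 CPM (−0.69 ± 0.34), was not called. Without that control 2 members were called and the median was −0.21, without the third control 17 were called, and without 10 °C replicate 1 or 3 it was 5 or 4. That first control also held 103.6 CPM of macrophage and 80.38 CPM of endothelial genes, against 187.2 to 208.2 and 135.3 to 144.2 CPM in the other controls, and the third control 126.7 CPM of brown adipocyte and 72.54 CPM of skeletal muscle genes, against at most 13.5 and 2.35 CPM. Hepatocyte genes summed to 60740 to 66420 CPM at 22 °C and 80720 to 85790 CPM at 10 °C, without overlap and with none of the 5 called. Their part in the members' difference was not tested. In the wider lists 1 of 95 genes was called higher (Mcm10 by 0.60) and 7 lower, with Ckap2l (−1.65), Ube2c (−1.51) and Cdkn1a (−1.05) foremost.

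Nervous tissue and muscle gave 1 member called at most. In hypothalamus this was Mki67, with 1.63, 1.64 and 2.27 CPM at 22 °C and 3.26, 5.23 and 2.45 CPM at 10 °C (0.97 ± 0.28, adjusted p = 0.718), against 0.399% of genes called higher and 0.179% lower, while Top2a had 1.70, 1.96 and 1.89 CPM against 1.17, 2.02 and 0.965 CPM (−0.40). In spinal cord it was again Mki67, with 3.27, 3.34, 3.17, 3.14 and 3.90 CPM against 4.83, 4.23, 11.2, 3.78 and 4.15 CPM (0.75 ± 0.28, adjusted p = 0.78), against 0.181% of genes called higher and 0.0904% lower. The library with 11.2 CPM also held the highest sum of neutrophil precursor genes, 13.57 CPM, and without it Mki67 differed by 0.34 and was not called. Brain at 10 °C had no member called of 29, against 0.27% of genes called higher and 2.45% lower, and a median of −0.15. Without the control that held liver transcripts the median was −0.02 and 1 member, Ccnb1, was called. No member was called in quadriceps at 10 °C (13 tested, 2.70% of genes higher and 0.642% lower) or 34 °C (13 tested, 0.409% and 0.836%), 2 comparisons that share their controls, nor in liver (15 tested, 1.77% and 1.61%) or brain (26 tested, 0.0429% and 0.15%) at 34 °C. With only the 3 quadriceps controls that the column names tie to each experiment, 1 member was called lower at 34 °C.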

How the data were processed

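The deposited files are whole-number read counts per gene, made by the authors with STAR 2.5.3a, Picard 1.141 and HTSeq 0.6p1 on mm10, per the labels. Bone marrow, spinal cord, quadriceps (kit per the labels) and the 34 °C experiment used stranded TruSeq libraries at one site, the other tissues NEBNext Ultra libraries at another. The strand setting of the counting is not given in the sources used here. In the table of 8 tissues 21583 of 21647 identifiers matched a symbol.

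Each exposed group was fitted against its own 22 °C libraries (quadriceps against all 6, which the labels do not split) with edgeR 4.0.16 in R 4.3.3 (TMM scaling, average log2 CPM above 0, quasi-likelihood F-test, two-sided, Benjamini-Hochberg adjustment over all genes tested). Differences between tissues were tested as interaction terms. Alternatives were library-size scaling, DESeq2 1.42.0 size factors and test, edgeR's exact test, other filters, a replicate block, other controls for quadriceps and leaving out each library. In the tests between tissues only some libraries were left out. Members below the filter, up to 23 of 36 in quadriceps, had few counts. Libraries of a group are separate pools or mice. Functions for the fits were tested on simulated data, for some of the comparisons only.

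Members, 9 pathway lists (113 genes) and 21 marker lists were chosen with earlier results of these data known. In each comparison every called member is named, up to 12 by the smallest p, and Mki67, Top2a, Ccnb1, Cdk1, Mcm5, Pcna, Rrm2, E2f1 and Foxm1 are described in bone marrow, spleen, ileum and fat whatever their p. Of the pathway lists, the called genes with the largest fold are named, at most 3 per direction.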

Additional observations from a re-analysis of the deposited data

Results flagged for a closer look

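Single libraries stood far from the rest of their group in 8 of the 50 group values tested by Dixon's rule, where chance gives about 1 in 20. In spinal cord at 10 °C the third library was highest for the members' mean log2 CPM (1.73), for Mki67 (11.2 CPM) and for Top2a (4.61 CPM). At 22 °C replicate 6 was highest for the mean (1.45) and for Mki67 (3.90 CPM). Among the quadriceps controls, replicate 1 stood out for Ccnb1 (0.291 CPM) and replicate 6 for Cdk1 (0.610 CPM), both at low counts. In bone marrow at 10 °C replicate 1 stood out for Mcm5 (506 CPM).

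Responses that differed between tissues by the interaction test at an adjusted p under 0.05 were, at 34 °C, those of 25 members between iBAT and ileum, 12 between iBAT and liver and 20 between iBAT and brain. At 10 °C they were Kif11 (adjusted p = 0.0392), Cdc45 (0.0465) and Rrm1 (0.0315) over all 8 tissues by edgeR's test, Mcm4 between ingSAT and pgVAT (a difference of −1.02 in log2 fold change) and Cdc45 between iBAT and pgVAT (0.90). No further test was made of these patterns.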

How the results depend on the processing

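No called value changed direction under an alternative. Medians near 0 took both signs when 1 library was left out: −0.27 to 0.13 in ingSAT, −0.0221 to 0.104 in ileum at 10 °C, −0.0742 to 0.00486 in ileum at 34 °C, −0.0312 to 0.0631 in spinal cord, −0.00948 to 0.187 in liver at 34 °C, −0.0702 to 0.0368 in quadriceps at 10 °C and −0.0552 to 0.0963 at 34 °C, where the other choice of controls also changed the sign, besides pgVAT. With an adjusted p under 0.05 as the rule, the members past it were 6 in bone marrow, 0 in spleen, 4 in iBAT at 10 °C, 0 in ingSAT, 0 in liver at 10 °C, 0 in spinal cord and 0 in hypothalamus. In iBAT at 10 °C the median was 0.21 with library-size scaling and 0.41 with the lowest filter. A stricter filter by group called 2 members in ingSAT, 1 in brain at 10 °C and 1 in liver at 34 °C, and the lowest filter 2 in ingSAT and 1 in brain at 10 °C. With the other choice of quadriceps controls 1 member was called at 34 °C. Leaving out each library in turn gave called members from 0 to 29 in spleen, 1 to 4 in ingSAT, 0 to 1 in pgVAT, 2 to 17 in liver at 10 °C, 0 to 1 in spinal cord, 0 to 2 in brain at 10 °C, 1 to 3 in hypothalamus, 0 to 2 in ileum at 34 °C, 0 to 2 in liver at 34 °C and 0 to 1 in brain at 34 °C, and medians from 0.31 to 0.46 in iBAT at 10 °C, −0.26 to 0.0741 in pgVAT, −0.75 to −0.21 in liver at 10 °C and −0.0718 to −0.0015 in brain at 34 °C. For the tests between tissues only some libraries were left out in turn. At 10 °C these were 13, from spleen and iBAT and the brain control that held liver transcripts. The members that differed ranged from 0 to 7, with 5 without that brain control. At 34 °C they ranged from 12 to 21 over the 6 iBAT libraries. DESeq2 gave 22 called members in iBAT at 34 °C, 11 in spleen and 10 in liver at 10 °C, and edgeR's exact test 21, 12 and 11. The cause of these moves was not tested. Replicate numbers did not pair the libraries: the deviations of same-numbered libraries correlated between −0.689 and 0.429, and in no comparison were all pairs above 0.1. With the replicate block, called members were 11 in spleen, 6 in iBAT at 10 °C and 12 in liver at 10 °C, and the test between tissues at 10 °C gave 0 members.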
